A study of Mus musculus with 6 samples.

Results

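Ion channel genes were the single listed host of 219 of the 11171 circular RNAs (circRNAs) measured in mouse cortex, and these 219 circRNAs came from 49 of 3469 single host genes. They were taken by name alone: each has 1 listed host gene whose symbol begins with Kcn, Scn, Cacn, Hcn, Ryr, Trpc, Trpm, Clcn or Ano and goes on as a member of that family. Cortex was compared between 3 Control mice and 3 mice with pilocarpine-induced temporal lobe epilepsy (TLE), all of them male C57BL/6 animals (C57BL/6J in the study's methods) of 6 weeks, with 1 library per mouse. The TLE mice received scopolamine methyl bromide, then pilocarpine, and diazepam to end Status Epilepticus (SE), and the Control mice received saline in place of each drug. TLE cortex was taken 24 h after SE, so seizures and all 3 drugs separate the groups together and cannot be told apart. The expression unit is SRPBM, in which the reads that cross a back-spliced junction are normalized to the reads mapped in that library.

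Ion channels set how a neuron fires: sodium channels carry the rising phase of the action potential, potassium channels repolarise the membrane and hold it at rest, and calcium channels couple firing to transmitter release and gene expression. A circRNA forms when the donor end of an exon is spliced backwards to the acceptor end of the same or an earlier exon of the gene, which closes the exons between them into a ring. Long genes with long introns are common hosts of such rings in the brain, and a ring is counted at its junction only, so SRPBM does not grow with the length of the ring.

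The junctions of the circRNAs that the results below turn on are printed here as DNA letters, 15 bases from either side. Lower case is the end of the last exon of the ring, and capitals are the start of its first exon, to which that end is joined. The bases were read from GENCODE M21 transcripts on mouse genome build GRCm38. The Kcnh5 circRNA mmu_circ_0001602, 12:75087405-75154281 on the minus strand with exons 2 to 7, was the member past the threshold, and it is set beside rings that share its acceptor (mmu_circ_0001605, exons 2 to 6) or its donor (mmu_circ_0001600, exon 7 alone) and beside the single-exon ring of the related gene Kcnh1.
Kcnh5 mmu_circ_0001602: tgatgatggtcggctAATCAAGTTTCTTAC
Kcnh5 mmu_circ_0001605: gaaaatgtggatgagAATCAAGTTTCTTAC
Kcnh5 mmu_circ_0001600: tgatgatggtcggctGGAATCAGCAGTCTC
Kcnh1 mmu_circ_0005157: tcatgatgattggctGGCATCAGCAGCCTG

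The 6 members with the highest mean follow, since they carry much of the signal of their families. The Kcnt2 rings have the same capitals because they begin at the same exon.
Kcnj6 mmu_circ_0003498: tggtggaagccacagCTAACGTCTTGGAAG
Trpc6 mmu_circ_0010789: cttgacaaaaatcagTTTGTGGCTCATCCA
Kcnt2 mmu_circ_0004843: ccttatcttcacttgGTCTCACATATTTTG
Ryr2 mmu_circ_0001825: ggagatggtgacaagGAGGAGGAAACCACC
Kcnt2 mmu_circ_0004846: acatcaaatttgcagGTCTCACATATTTTG
Cacna1c mmu_circ_0008425: accaactccaacctgGTTCCAACTATGGGA

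Within each library every value was a whole multiple of 1 step of 8.55 to 10.3 SRPBM, within 0.05 of a step, and 1 step was taken as 1 junction read. The smallest listed value was 2 reads, and 3 reads, or 25.6 to 31.0 SRPBM, served as a floor. This floor allows for counting error alone. The libraries held 32504 to 56516 junction reads, and the total SRPBM was 347492 ± 14938 in Control and 411269 ± 76664 in TLE (SD, n = 3 each, exact permutation test, two-sided, p = 0.3). Because TLE replicates 2 and 3 had the higher totals, values rescaled to the same total are given beside those deposited. SRPBM is already normalized to mapped reads, so this rescaling would also remove any overall change of circRNA signal between the groups. What set the totals apart was not tested. Among cell type markers, 4 of 9 neuronal genes hosted circRNAs, with 18 circRNAs and a summed SRPBM of 530 to 753 in Control and 589 to 857 in TLE, and Syt1 and Grin2b carried most of it. Of 6 astrocyte genes only Slc1a2 hosted any, and 0 of the oligodendrocyte, microglial and endothelial markers did, so the cell make-up of the cortex was not testable from these rings.

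Ion channel rings made up 2.07, 2.15 and 2.02% of the total SRPBM in Control replicates 1 to 3 and 1.82, 2.11 and 1.99% in TLE replicates 1 to 3. The shares overlapped, at 2.08 ± 0.0661% in Control and 1.97 ± 0.144% in TLE (SD, n = 3 each, exact permutation test, two-sided, p = 0.3, where 0.1 is the smallest p this design allows). In SRPBM the members summed to 7281, 7131 and 7287 in Control and to 6115, 8627 and 9709 in TLE. TLE replicate 1 was thus below every Control library and TLE replicates 2 and 3 were above them (7233 ± 88.4 against 8150 ± 1844, SD, n = 3 each, exact permutation test, p = 0.4), and after rescaling TLE was lower by 422.8 (exact permutation test, p = 0.3). In bulk cortex, fewer cells of a type and less RNA per cell cannot be told apart.

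Members detected numbered 92, 80 and 84 in Control and 73, 107 and 122 in TLE. In TLE this was the order of the total junction reads, which is not a measure of all reads mapped. When each library was thinned to 32504 junction reads, 76.9 ± 2.89 members were left in Control and 80.9 ± 7.37 in TLE (SD, n = 3 each, exact permutation test, two-sided, p = 0.5). Most members were rare: 149 of 219 (68.0%) had at most 10 junction reads over the 6 libraries, 96 (43.8%) were listed in 1 library only, and 31 (14.2%) were listed in all 6. Over the whole table these shares were 68.0%, 45.4% and 13.9%. At the other end, 11 members (5.02%) had 100 reads or more, against 3.58% of all circRNAs.

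Of 178 protein-coding genes annotated in these families, 49 hosted rings. The hosts were long genes, with a median length of 251.8 kb and quartiles of 128.3 and 417.2 kb, whereas the 129 genes with no ring listed had a median of 28.1 kb and quartiles of 12.3 and 71.7 kb. The potassium channel families (Kcn) gave the most rings, 61 from 15 of 77 pore-forming subunit genes and 7 from 3 of 17 auxiliary ones. The pore-forming calcium channel subunits (Cacna1) gave 39 rings from 6 of 10 genes, the anoctamins (Ano) 28 from 5 of 10 and the ryanodine receptors (Ryr) 21 from 2 of 3. A further 18 came from 2 of 4 Cacna2d genes, 12 from 3 of 8 Trpm genes, 12 from 3 of 17 sodium channel (Scn) genes and 11 from 4 of 7 Trpc genes. The Cacnb, Cacng and Clcn families had 4, 2 and 1.

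A few rings held much of the signal. The leading 5 members carried 33.9% of the summed ion channel SRPBM, the leading 10 carried 53.0% and the leading 20 carried 68.1%, and by gene 5 hosts carried 50.5%. Kcnt2, which encodes a sodium-activated potassium channel, led with 14.6%, and Kcnt2 and Ryr2 together carried 27.5%.

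**Figure D1:**
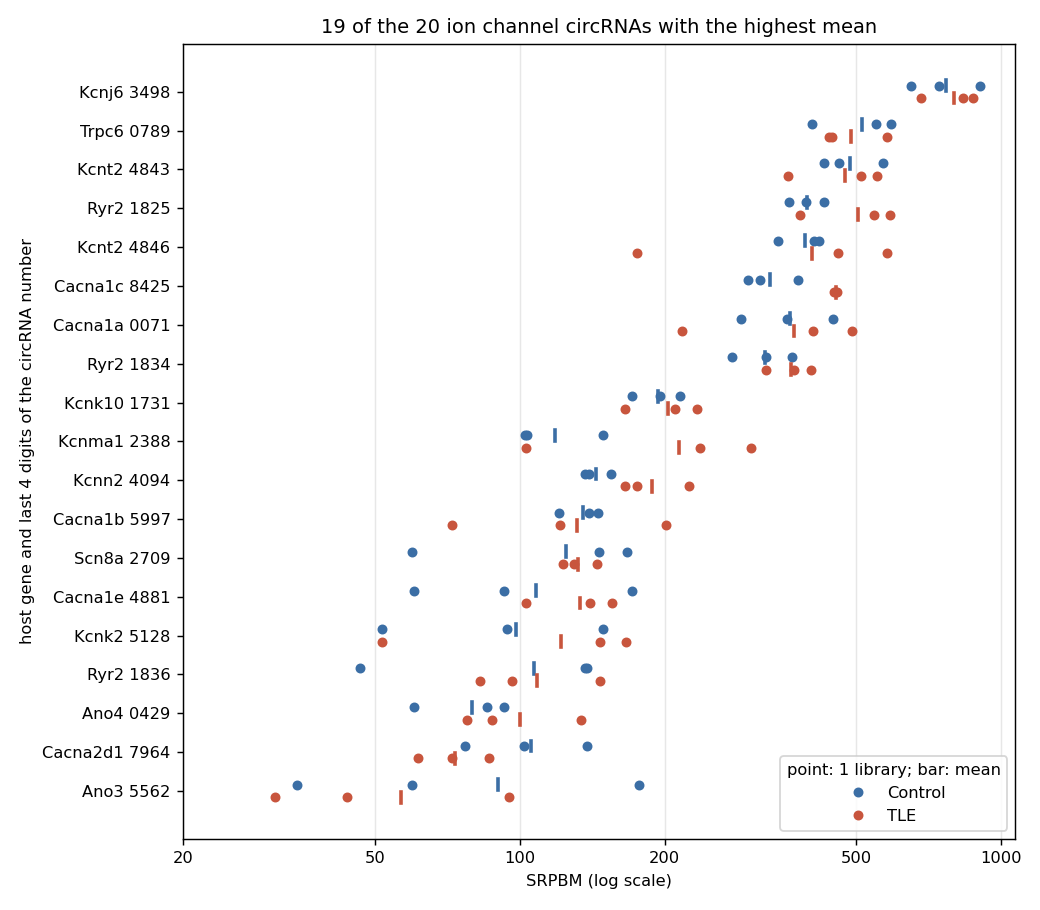
SRPBM (log axis) of 19 of the 20 members with the highest mean, named by host gene and the last digits of the circRNA number, with 1 point per library (blue Control, red TLE) and a bar at each group mean. The groups overlap for most rings. Those of Cacna1c and Kcnn2 do not, and the highest ring, from Kcnj6, lies between 651 and 904.

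Kcnj6 encodes a potassium channel opened by G proteins, through which transmitters quiet neurons. Its leading ring (mmu_circ_0003498, 16:94832299-94833219) is exon 2 alone, 921 nucleotides long in the annotation and holding the start codon, and it was the most abundant member. It was at 743, 651 and 904 SRPBM in Control and 682, 833 and 874 in TLE, so the groups lay on top of each other (log2 fold change 0.06, SE 0.22, limma, unadjusted p = 0.793). Rescaled to the same total, the log2 fold change was -0.16. This ring made up 99.6% of the Kcnj6 signal, which came from 2 rings.

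Trpc6 encodes a cation channel opened by diacylglycerol. Its ring of exons 4 to 10 (mmu_circ_0010789, 9:8634047-8658377) was at 590, 549 and 405 SRPBM in Control and 444, 438 and 580 in TLE. It too overlapped between groups (log2 fold change -0.07, SE 0.24, limma, unadjusted p = 0.779), and it gave 99.4% of the Trpc6 signal.

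Kcnt2 had 14 rings, the second most of any member gene, and 6 of them were listed in all 6 libraries. Exon 4 was a shared starting point: 5 rings began at its acceptor and together carried 88.1% of the Kcnt2 signal. The ring of exons 4 to 8 (mmu_circ_0004843, 1:140362949-140383095, 363 nucleotides) was at 461, 428 and 568 SRPBM in Control and 362, 552 and 511 in TLE. The ring of exons 4 to 13 (mmu_circ_0004846, 1:140362949-140450304, 1019 nucleotides) was at 419, 409 and 345 in Control and 176, 579 and 459 in TLE. Both overlapped between groups, the longer one with TLE replicate 1 as its lowest library and TLE replicate 2 as its highest. The shorter ring made up 43.9, 38.0 and 48.5% of Kcnt2 SRPBM in Control and 49.3, 39.6 and 40.1% in TLE, again with overlap.

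Ryr2, the calcium release channel of the endoplasmic reticulum, had the most rings of any member gene, 15, spread over a transcript of 105 exons. The leading ring joins exons 59 to 62 (mmu_circ_0001825, 13:11680966-11688013) and was at 393, 428 and 362 SRPBM in Control and 382, 587 and 545 in TLE. TLE replicates 2 and 3 were above all Control libraries and TLE replicate 1 was among them (log2 fold change 0.32, SE 0.25, limma, unadjusted p = 0.206, and 0.10 after rescaling). The ring of exons 24 to 29 (mmu_circ_0001834) was at 367, 325 and 276 in Control and 403, 324 and 372 in TLE, and a shorter ring from the same acceptor (mmu_circ_0001836, exons 24 to 27) was at 137, 46.5 and 138 and at 82.6, 96.4 and 147. The leading ring also shared its donor, the end of exon 62, with 2 rings that begin at exons 47 and 55.

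**Figure D2:**
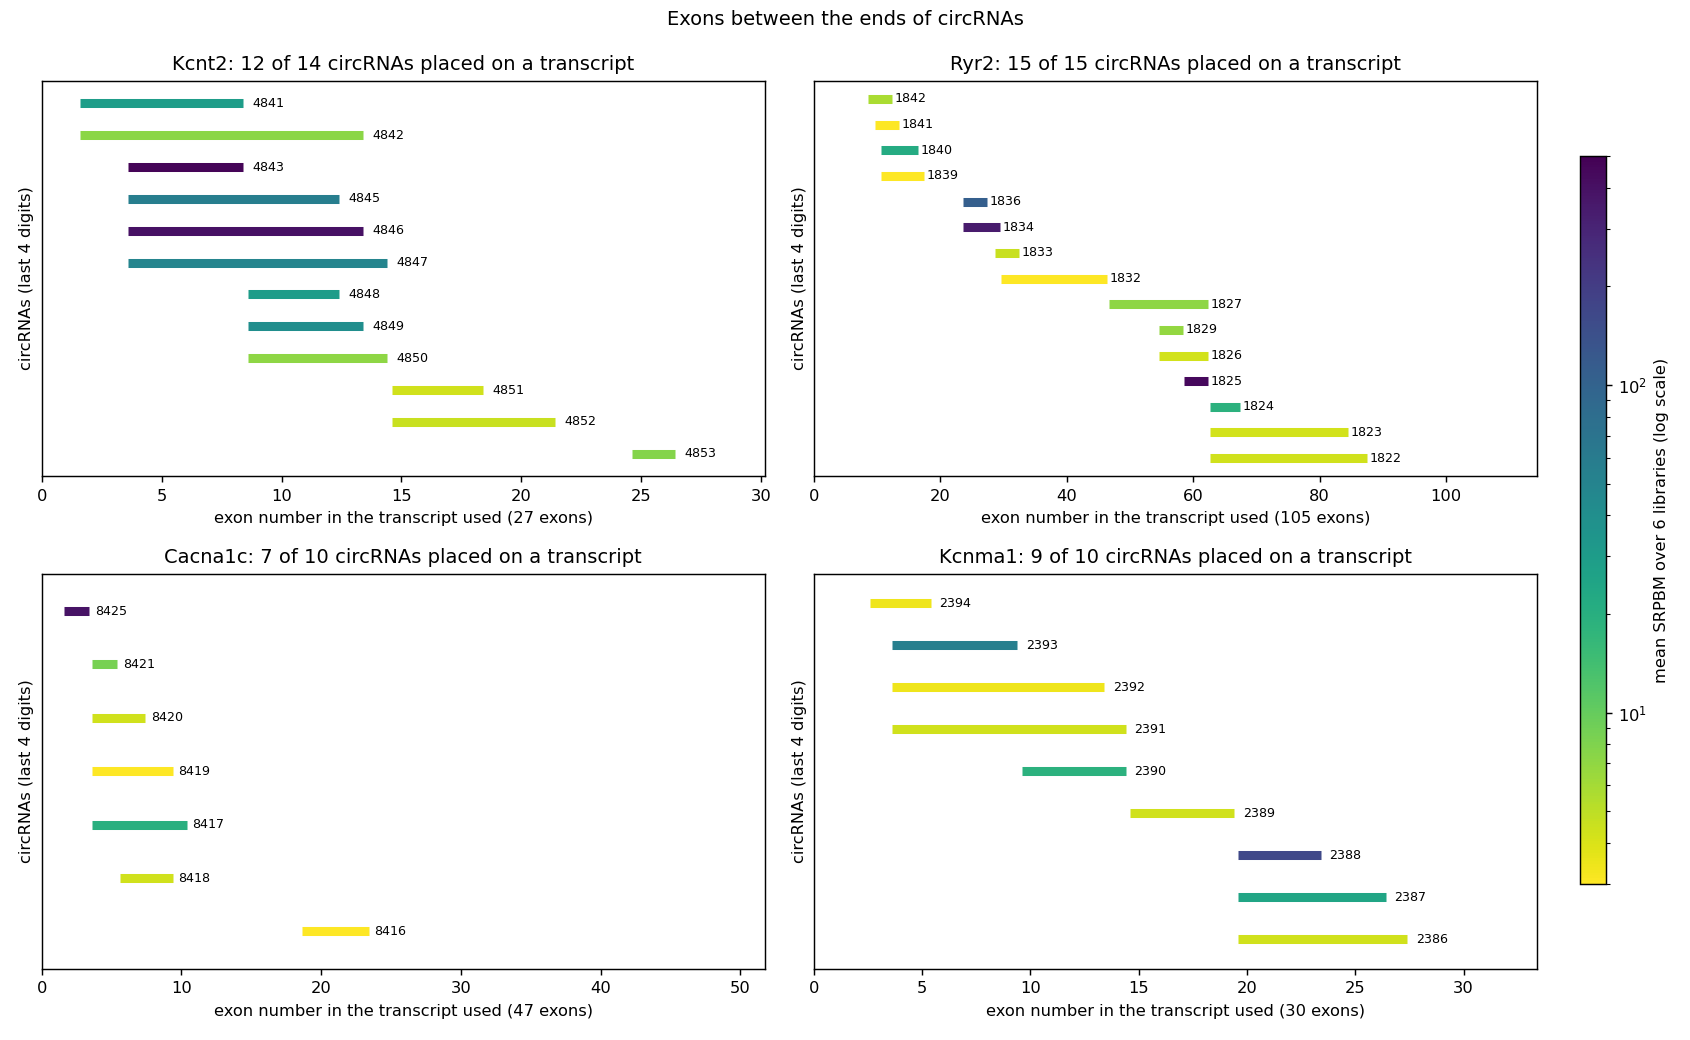
Rings of Kcnt2, Ryr2, Cacna1c and Kcnma1 drawn as bars from their first to their last exon (x axis, exon number in the annotated transcript used), 1 row per ring, coloured by the mean SRPBM over 6 libraries on a log scale, labelled with the last digits of the circRNA number. In Kcnt2 the darkest bars begin together at exon 4, and in Ryr2 they lie apart at exons 24 to 29 and 59 to 62. Rings whose ends lay on no common transcript are not drawn.

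Such shared ends were found in most member genes with several rings. The share over all host genes is not given here, so this is a description of the members only. Of 35 member genes with at least 2 rings, 28 had an acceptor used by more than 1 ring and 24 had a donor used by more than 1. The acceptor of exon 8 of Kcnh7, an ERG-type potassium channel gene, was used by 5 of its 9 rings. That of exon 11 of Cacna2d1, the calcium channel subunit bound by gabapentin, was used by 4 of 6 rings with 85.8% of its signal, and that of exon 2 of Kcnk10, a leak potassium channel gene, by 3 of 4 with 98.7%. In Ano3, the donor of exon 12 was used by 4 of 12 rings with 55.6% of its signal.

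Both ends lay exactly on annotated exon boundaries in 196 members (89.5%, 95% Wilson interval 84.7 to 92.9%). Of all 10273 circRNAs with 1 listed host, 9342 had both ends there. That was 83.6% of the whole table, in which circRNAs without a single host could not be placed and counted as misses. The 195 members placed on 1 transcript held a median of 4 exons with quartiles of 3 and 7, and 3 was the most frequent number (36 members). A single exon formed 10 of them and more than 10 exons formed 14, up to 25. Their exons summed to a median of 621 nucleotides, from 199 to 3514, against a median of 609 over all placed circRNAs. Reads across a junction do not show which inner exons were kept, so these lengths follow from the annotation.

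Most ion channel rings lay wholly inside the coding part of their genes. Of the 195 placed members this held for 187 (95.9%), against 82.3% of all placed circRNAs, and 7 (3.59%) held the annotated start codon, against 15.4%. Exon 2 was the first exon of 32 members (16.4%), against 29.6% of all placed circRNAs. These shares are descriptions, since rings of 1 gene share its exon structure.

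Related genes formed rings at matching exons in some cases. Kcnh1 and Kcnh5 encode EAG-type potassium channels, and exon 7 of each formed a single-exon ring, 430 nucleotides in Kcnh1 and 427 in Kcnh5. At the junctions printed above, 12 of 15 bases were the same on either side. The Kcnh1 ring (mmu_circ_0005157, 1:192337400-192337829) was at 0, 37.2 and 51.7 SRPBM in Control and 31.0, 17.5 and 86.5 in TLE. The Kcnh5 ring was at 0, 37.2 and 0 and at 0, 26.3 and 34.6. Both overlapped between groups, and they rested on 25 and 11 reads over the 6 libraries. A further pair, exons 32 to 35 of Cacna1a and 33 to 36 of Cacna1b, matched at 14 of 15 bases on the acceptor side and 12 on the donor side, with 4 reads for each ring. These bases were compared for the members whose junction could be read from a transcript. Over their 132 acceptors, 5 of 880 pairs between genes of 1 family had at least 12 of 15 bases in common, and 0 of 7536 pairs between families did. For their 149 donors these counts were 6 of 1205 and 1 of 9494.

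The families were compared by summed SRPBM, 1 value per library. In the 12 families described here the Control and TLE values overlapped, and the Benjamini-Hochberg adjusted p of the exact permutation test, over 13 families, was 1 for each. Pore-forming Kcn rings summed to 2769, 2947 and 3411 in Control and 2438, 3928 and 4024 in TLE. TLE replicate 1 was the lowest of the 6 libraries and TLE replicates 2 and 3 the highest (3042 ± 331 against 3463 ± 889, SD, n = 3 each, exact permutation test, p = 0.4), and after rescaling TLE was lower by 147.4.

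Cacna1 rings, from the pore-forming subunits, summed to 1290, 1051 and 1232 in Control and 1085, 1569 and 1705 in TLE (exact permutation test, p = 0.3), a TLE mean 1.22 times the Control mean that came to 1.03 times after rescaling. Rings of the auxiliary Cacna2d genes were at 239, 344 and 345 in Control and 176, 254 and 415 in TLE (exact permutation test, p = 0.9). In both, TLE replicate 1 was the lowest or the second lowest of the 6 libraries. Ryr rings were at 1222, 958 and 887 in Control and 1054, 1096 and 1307 in TLE (exact permutation test, p = 0.4), with overlap as well. The Cacnb rings, from the intracellular beta subunits, had the highest ratio of group means of these families, 1.51, at 34.2, 65.1 and 86.1 in Control and 124, 70.1 and 86.5 in TLE (61.8 ± 26.1 against 93.5 ± 27.6, SD, n = 3 each, exact permutation test, p = 0.2). That family rests on 51 reads in 4 rings.

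The smaller families were as variable. Trpc rings were at 795, 790 and 534 in Control and 465, 622 and 831 in TLE (exact permutation test, p = 0.7), and Ano rings at 453, 493 and 284 and at 341, 482 and 684 (exact permutation test, p = 0.5). Scn rings, from the sodium channels that start the action potential, had the narrowest spread of these, 188, 232 and 172 against 186, 210 and 234 (exact permutation test, p = 0.7). Trpm rings were at 171, 205 and 129 in Control and 82.6, 316 and 208 in TLE (exact permutation test, p = 0.7). Auxiliary Kcn rings, mostly from Kcnip4 and Kcnab1, partners of voltage-gated potassium channels, ranged from 46.5 to 129 in Control and from 61.4 to 173 in TLE. Cacng and Clcn had 4 and 11 reads, too few to show a difference at this depth.

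**Figure D3:**
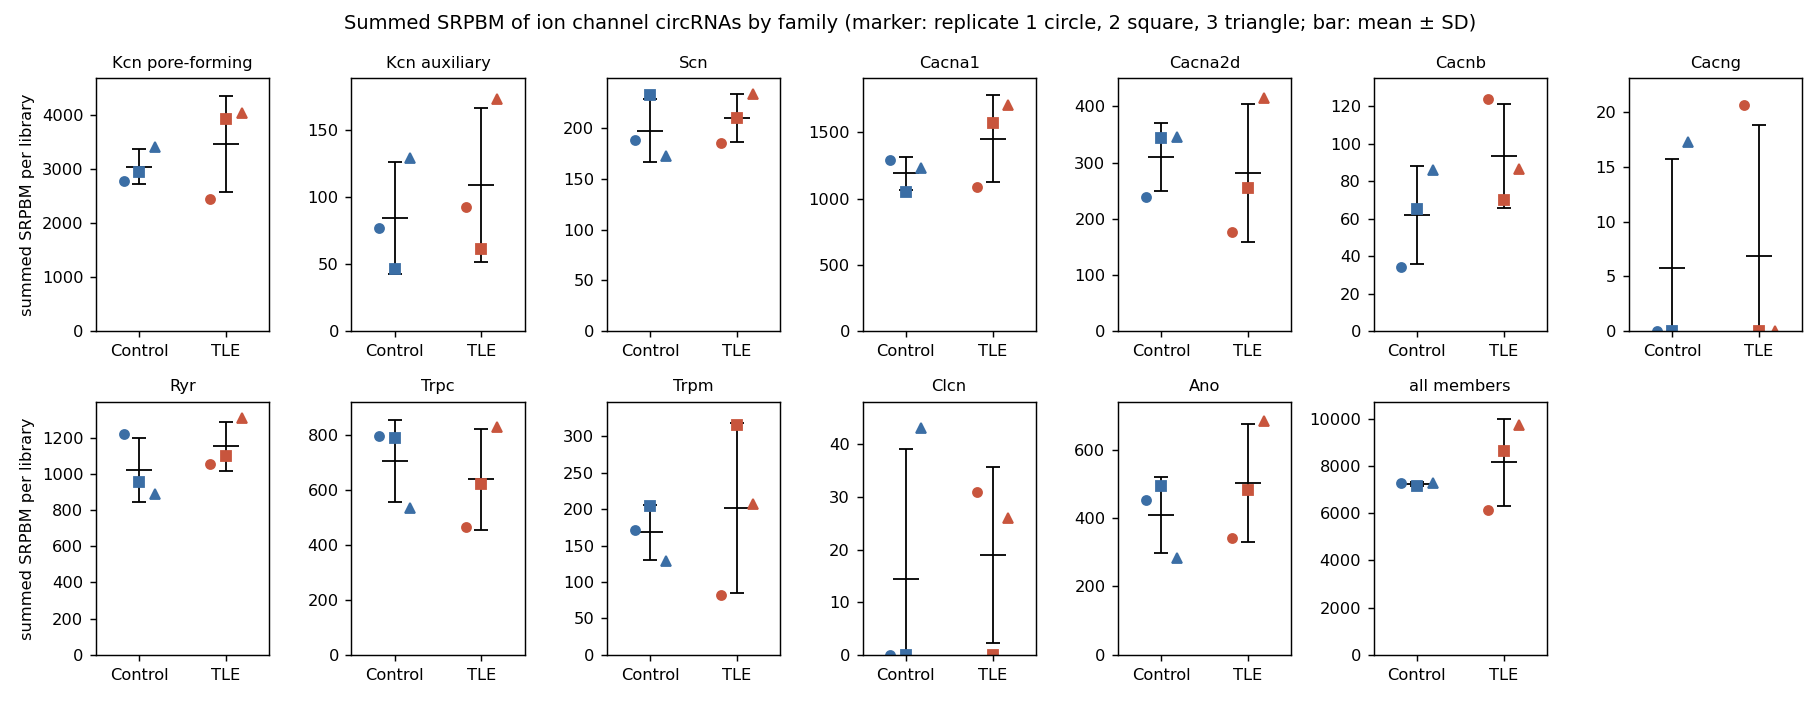
Summed SRPBM per library (linear y axes from 0) for 12 ion channel families and for all members together, with 1 marker per mouse and a line at the mean ± SD of each group (n = 3). Control and TLE overlap in every panel. For all members, the Control libraries lie between 7131 and 7287 and the TLE libraries between 6115 and 9709.

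For single circRNAs, limma was fitted to log2(SRPBM + 17.1), the added 17.1 being the lowest nonzero value, over every circRNA with signal in 3 libraries or more. Fold changes on this scale understate the change of rare rings. Of 82 members tested, TLE was higher for 1 and lower for 0 at the threshold of the study, a log2 fold change of 1.5 with an unadjusted p under 0.05. Among all 4271 circRNAs tested, 54 (1.26%) were higher and 13 (0.304%) were lower, so the members' counts were near the background. In 3 of the 82 members all signal lay in 1 group, the member past the threshold among them. These passed the filter only through the group where they are high, so they had to differ, and no p is given for them below. An unadjusted limma p under 0.05 was reached by 3 members, 2 of them with signal in TLE alone, against 222 circRNAs (5.2%) in all, and no circRNA passed after Benjamini-Hochberg adjustment (smallest limma adjusted p = 0.838). The log2 fold change was above 0 in 44 members and below 0 in 38, with a median of 0.10 against 0.17 over all circRNAs tested. After rescaling these medians were -0.07 and 0.01, with 38 members above 0 and 44 below.

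The member past the threshold came from Kcnh5, an EAG-type potassium channel gene. Its ring of exons 2 to 7 of 11 (mmu_circ_0001602, 1296 nucleotides in the annotation) was listed at 0 throughout Control and at 41.3, 43.8 and 17.3 SRPBM in TLE replicates 1 to 3. Only the TLE libraries held it, and TLE replicate 3 had it at 2 reads, under the floor. The fitted log2 fold change was 1.54, which depends on the added 17.1. The TLE mean was 1.29 times the mean floor of the Control libraries, a ratio that makes no allowance for counting error in TLE. The ring rests on 11 reads in all. After rescaling the log2 fold change was 1.498, just short of the threshold, and without any 1 TLE library the ring was left out of the test.

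The other Kcnh5 rings had mixed values. The ring that shares its acceptor (mmu_circ_0001605, exons 2 to 6) was the leading Kcnh5 ring, at 42.7, 37.2 and 25.8 SRPBM in Control and 0, 52.6 and 51.9 in TLE. It was listed at 0 in TLE replicate 1, which held the longer ring at 4 reads, and its means were 35.3 in Control and 34.8 in TLE. Among the others, mmu_circ_0001601 was listed in TLE replicate 2 alone, at 43.8, and mmu_circ_0001603 in Control replicate 2 alone, at 18.6. All 6 Kcnh5 rings together were at 59.8, 93.0 and 51.7 in Control and 41.3, 184 and 104 in TLE (log2 fold change 0.43, SE 0.51, limma, unadjusted p = 0.407).

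The reverse of the Kcnh5 pattern was found in Trpc4, which encodes a cation channel related to Trpc6, where a ring (mmu_circ_0006774, 3:54222193-54227294, its ends on no common transcript) was at 17.1, 18.6 and 17.2 in Control and 0 in all TLE libraries. Both groups lay under the floor, with 2 reads in each Control library, so no fold is given. Of the members, 2 were listed throughout TLE and at 0 in Control and 1 showed the reverse, against 1.76% and 0.96% of all circRNAs tested.

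In 7 members the groups did not overlap, with TLE above Control in 6 and below in 1, where the background was 8.94% above and 2.11% below. The 1 with the most reads was the Cacna1c ring of exons 2 to 3 (mmu_circ_0008425, 6:119052601-119057515), from the gene for the main L-type calcium channel of brain and heart. It was at 316, 298 and 379 SRPBM in Control and 455, 456 and 450 in TLE, with 261 reads in all. The highest Control value lay below the lowest TLE value, and the TLE values were nearly equal (log2 fold change 0.44, SE 0.24, limma, unadjusted p = 0.0819). After rescaling it was at 341, 341 and 399 in Control and 514, 423 and 349 in TLE, so the groups overlapped (log2 fold change 0.23, limma, unadjusted p = 0.315).

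The same change of layout was seen for Kcnn2, the gene of a calcium-activated potassium channel that damps repeated firing. The Kcnn2 ring of exon 6 (mmu_circ_0004094) was at 137, 139 and 155 SRPBM in Control and 165, 175 and 225 in TLE (log2 fold change 0.35, SE 0.31, limma, unadjusted p = 0.274). It did not pass the test, and the groups overlapped after rescaling. An Ano4 ring of 24 reads (mmu_circ_0000425, exons 5 to 7) was at 42.7, 0 and 17.2 in Control and 51.6, 52.6 and 51.9 in TLE (limma, unadjusted p = 0.0970) and also overlapped after rescaling. Rescaled, 2 members lay above and 3 below without overlap, against 5.08% and 4.96% of all circRNAs tested. The Kcnh5 ring was among those above, and those below were the Trpc4 ring and, overlapping as deposited, the leading rings of the calcium channel subunit genes Cacna2d1 and Cacna2d3, the last of which was named after its values were seen. As deposited, the Control libraries held the Cacna2d1 ring (mmu_circ_0007964, exons 11 to 21) at 76.9, 102 and 138 SRPBM, and the TLE libraries held it at 72.3, 61.4 and 86.5 (limma, unadjusted p = 0.299). For the Cacna2d3 ring (mmu_circ_0002455, exons 21 to 24) the Control values were 59.8, 46.5 and 94.7 SRPBM and the TLE values 0, 35.1 and 60.6 (limma, unadjusted p = 0.120).

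**Figure D4:**
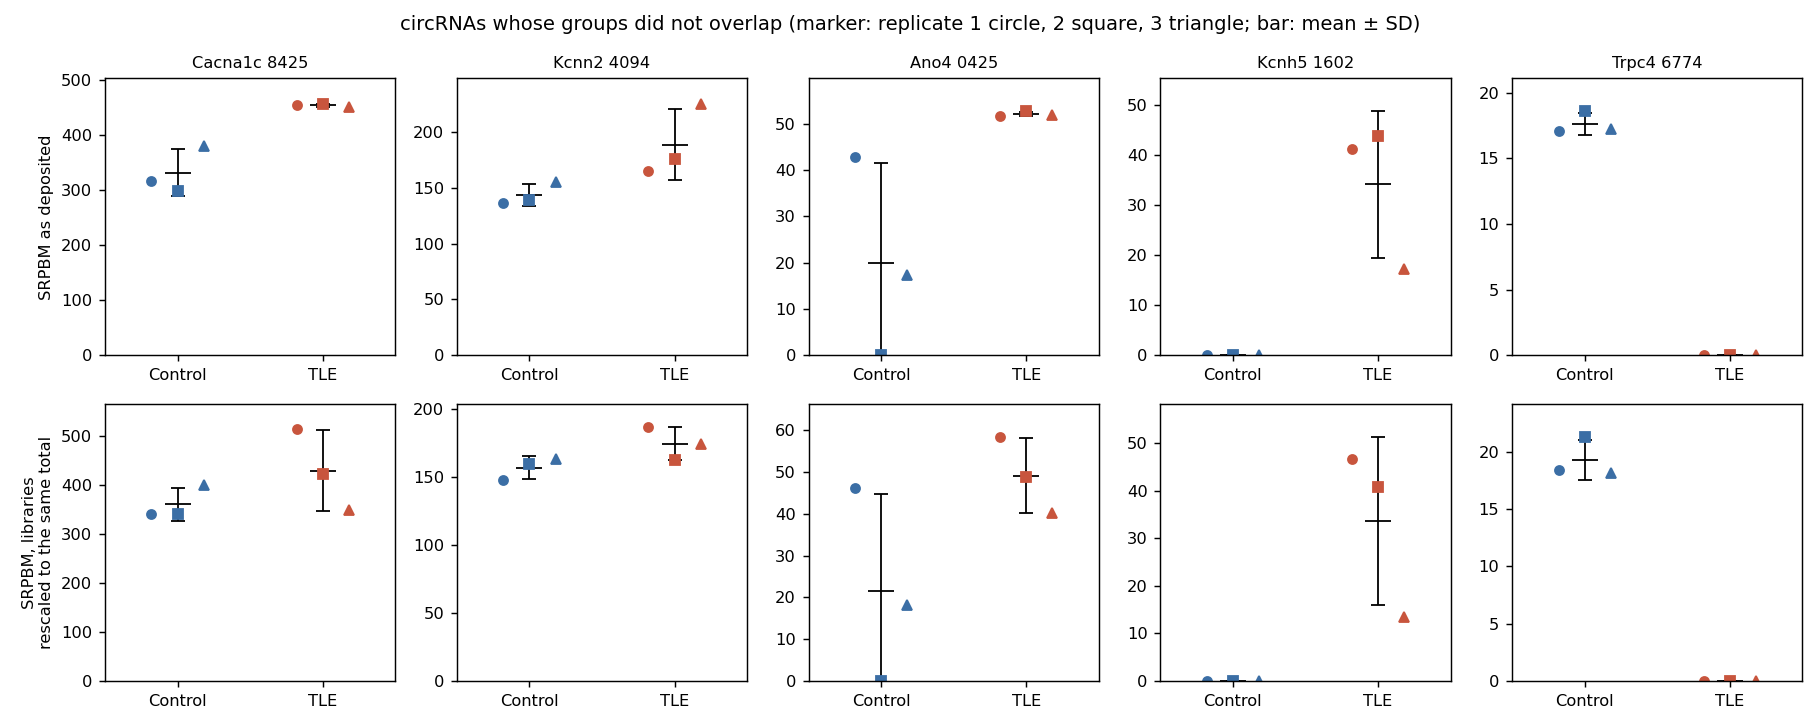
SRPBM of 5 of the 7 members whose groups did not overlap, as deposited (upper row) and with every library rescaled to the same total (lower row), on linear axes from 0 with 1 marker per mouse and a line at the mean ± SD (n = 3). In the lower row the rings of Cacna1c, Kcnn2 and Ano4 overlap between groups, and those of Kcnh5 and Trpc4 do not.

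Another Cacna1c ring, chosen after its values were seen for its unadjusted p under 0.05, joins the same exon 2 acceptor to an end that lay on no common transcript (mmu_circ_0008422, 6:119002577-119057515). It was at 0, 0 and 34.5 SRPBM in Control and 31.0, 43.8 and 95.2 in TLE, and Control replicate 3 lay among the TLE libraries (log2 fold change 1.48, SE 0.67, limma, unadjusted p = 0.0400). After rescaling the log2 fold change was 1.38 and the p was no longer under 0.05 (limma, unadjusted p = 0.0533). The exon 2 acceptor was used by 4 of the 10 Cacna1c rings, with 91.1% of the signal. The leading ring made up 94.9, 86.5 and 72.1% of Cacna1c SRPBM in Control and 83.0, 88.1 and 72.2% in TLE.

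**Figure D5:**
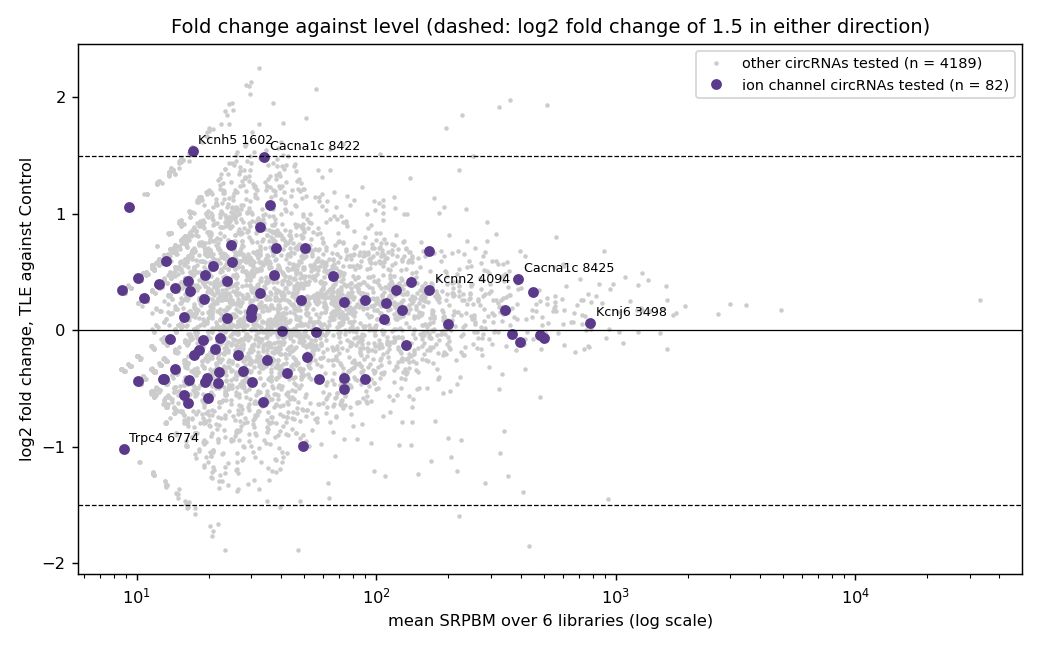
Log2 fold change of TLE against Control (y axis, limma on log2(SRPBM + 17.1)) against the mean SRPBM over 6 libraries (x axis, log scale) for 82 members (purple) and the other circRNAs tested (grey). The members lie among the others at each level, 1 of them above the upper dashed line at 1.5 and 0 below the lower one, and the widest fold changes belong to rings with few reads.

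Taken by gene, the rings of each host were summed, and 38 of the 49 genes had signal in 3 libraries or more. In limma 0 of the 38 were higher and 0 lower at the threshold, against 1.53% and 0.371% of 2157 host genes tested, and 1 had an unadjusted p under 0.05, against 6.17%. That gene was Kcnma1, which encodes the large-conductance potassium channel opened by calcium and voltage. Its 10 rings summed to 197, 205 and 284 SRPBM in Control and 217, 509 and 502 in TLE. TLE replicates 2 and 3 were far above Control and TLE replicate 1 was within it (log2 fold change 0.72, SE 0.34, limma, unadjusted p = 0.0451, adjusted p = 0.780). After rescaling the log2 fold change was 0.50 and the p was no longer under 0.05 (limma, unadjusted p = 0.0840).

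The leading Kcnma1 ring, exons 20 to 23 (mmu_circ_0002388, 14:23363801-23386353), was at 103, 149 and 103 SRPBM in Control and 103, 237 and 303 in TLE (log2 fold change 0.68, SE 0.38, limma, unadjusted p = 0.0903). It followed the gene, with TLE replicate 1 at the Control level. Exon 20 was the first exon of 3 of the 10 rings, which carried 61.3% of the Kcnma1 signal. Ano4, a gene of the anoctamin family, had a summed SRPBM of 179, 93.0 and 146 in Control and 207, 281 and 216 in TLE, without overlap (log2 fold change 0.71, SE 0.35, limma, unadjusted p = 0.0543). After rescaling Ano4 was at 194, 107 and 154 in Control and 233, 260 and 168 in TLE, so the groups overlapped (log2 fold change 0.51). As deposited, TLE lay above Control without overlap in 2 of the 38 member genes, Ano4 and Kcnn2, against 10.7% of all host genes tested, and below it in 0, against 1.95%. After rescaling the counts were 0 above and 0 below, against 5.61% and 4.73%.

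Other leading hosts had smaller fold changes. All Cacna1c rings together were at 333, 344 and 525 SRPBM in Control and 547, 517 and 623 in TLE (log2 fold change 0.50, SE 0.26, limma, unadjusted p = 0.0750), with 1 Control library among the TLE ones. Cacna1a, the pore of the P/Q-type calcium channel at presynaptic terminals, was at 402, 409 and 465 in Control and 238, 570 and 485 in TLE, and its ring of exons 28 to 30 (mmu_circ_0010071, 8:84583559-84588859) made up 86.0% of this. Cacna1b, of the N-type channel, was at 231, 205 and 121 in Control and 93.0, 263 and 312 in TLE. Both genes had the lowest library in TLE replicate 1 and the highest in another TLE library. Cacna1e, of the R-type channel, was led by mmu_circ_0004881, at 171, 93.0 and 60.3 in Control and 103, 140 and 156 in TLE.

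The leak potassium channel gene Kcnk10 was the steadiest of the leading hosts, at 205, 223 and 215 SRPBM in Control and 196, 228 and 234 in TLE (log2 fold change 0.03, SE 0.30, limma, unadjusted p = 0.932). Its relative Kcnk2 varied more, with its ring of exons 5 to 7 (mmu_circ_0005128) at 94.0, 149 and 51.7 in Control and 51.6, 167 and 147 in TLE. Scn8a, a sodium channel gene of the axon initial segment, summed to 154, 186 and 146 in Control and 145, 193 and 182 in TLE, with 76.7% from the ring of exons 13 to 15 (mmu_circ_0002709). Cacna2d1 was at 128, 195 and 224 and at 134, 132 and 182. None of these genes separated the groups.

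Ano3 and Cacna2d3 had 12 rings each, and both were spread over many low values. Ano3 was at 179, 372 and 68.9 SRPBM in Control and 103, 87.7 and 277 in TLE, and both the highest and the lowest value were those of Control libraries. Its leading ring, exons 8 to 12 (mmu_circ_0005562), was at 59.8, 177 and 34.5 in Control and 31.0, 43.8 and 95.2 in TLE, and it set much of that range. Cacna2d3 was at 111, 149 and 121 in Control and 41.3, 123 and 234 in TLE, with 0 of its rings listed in all 6 libraries. The Trpm7 gene, for a channel fused to a kinase, was at 154, 130 and 60.3 and at 41.3, 219 and 130.

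Of the leading hosts in the small families, Kcnip4 was at 34.2, 46.5 and 51.7 SRPBM in Control and 72.3, 35.1 and 95.2 in TLE. Cacnb2 was at 17.1, 65.1 and 17.2 and at 124, 26.3 and 51.9, from the single ring of exons 11 to 13. Clcn4, of an endosomal chloride and proton exchanger, was at 0, 0 and 43.1 and at 31.0, 0 and 26.0. Cacng2, an auxiliary subunit of AMPA receptors, had 1 ring, listed at 20.7 in TLE replicate 1 alone. All overlapped between groups and rested on 2 to 37 reads.

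Partners and other channels outside the name rule were taken from a list of 47 genes, of which 18 hosted 83 rings. Of 27 rings tested in limma 0 were higher and 0 lower at the threshold, against 1.26% and 0.304% of all circRNAs tested. An unadjusted p under 0.05 was reached by 0 of them, against 5.2%. Their median log2 fold change was -0.16, against 0.17 over all circRNAs tested, with 12 rings above 0 and 15 below. After rescaling 8 were above 0 and 19 below, with a median of -0.28, against 0.01 over all circRNAs tested. By host gene, 8 were above 0 and 7 below, and after rescaling 4 and 11. Over all host genes tested, 1102 were above 0 and 1055 below after rescaling. Against 1.53% and 0.371% of all host genes tested, 1 of 15 of these host genes was higher and 0 lower. It was Dpp10, a partner of A-type potassium channels, at 0, 65.1 and 17.2 SRPBM in Control and 41.3, 210 and 69.2 in TLE (log2 fold change 1.52, SE 0.67, limma, unadjusted p = 0.0353, adjusted p = 0.766), and after rescaling it was 1.37 (limma, unadjusted p = 0.0549). The groups overlapped, and the highest value was that of TLE replicate 2. Unc79, of the sodium leak channel complex, had the highest sum of the list, at 1769, 1636 and 1783 in Control and 1704, 2130 and 2310 in TLE (log2 fold change 0.23, limma, unadjusted p = 0.263). Both were chosen for naming after their values were seen.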

How the data were processed

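Total RNA of mouse cortex was depleted of ribosomal RNA and sequenced, with 1 library per mouse. Per the paper's methods, the authors aligned reads with BWA-MEM and identified circRNAs with CIRI. The authors deposited a signal per circRNA in SRPBM, junction reads normalized to mapped reads, on build mm10 per the submitters' processing notes, which also name DESeq2 as the authors' test. The table was deposited in 6 identical copies, of which 1 was used.

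A circRNA was a member where it had 1 listed host (10273 circRNAs; 837 had no host and 61 had several, 0 of the latter with an ion channel gene) whose symbol fell in a family. Symbols were matched for 3466 of 3469 host IDs. The members and lists were chosen with earlier results of these data known. Ends were placed on GENCODE M21 exons (GRCm38), in the transcript holding both ends. Junction reads (32504 to 56516 per library) were inferred from the step of the values and were not used in a count test.

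TLE and Control were compared with limma 3.58.1 (R 4.3.3, eBayes with trend, two-sided, Benjamini-Hochberg adjustment over all circRNAs or host genes tested) on log2(SRPBM + 17.1), in rows above 0 in at least 3 libraries. Family sums and numbers detected were compared with exact permutation tests over the 10 distinct splits (smallest p 0.1). Intervals are 95% Wilson intervals. Exact tests used scipy 1.17.1, tables pandas 2.3.3 and numpy 2.4.6, and plots matplotlib 3.10.9 in Python 3.11.15. The fit was tested on simulated data with counting noise alone and changes planted only in circRNAs with many reads. That test does not cover rare rings or the wider spread between replicates. Likeness of junctions was counted as equal bases of 15 on each side, with 12 as the minimum.

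Named were members past the threshold, members listed in every library of 1 group and at 0 in the other, the 20 members and 10 genes with the highest means, the 5 genes with most rings, the leading gene of each family, and members without overlap that had at least 30 reads. Rings named for shared or matching ends, and the Ano4 ring of 24 reads, were chosen after their values were seen. Results of some members are not reported here, although counts over all members include them. No labels say that libraries came from separate batches, and p-values measure the spread between mice. Replicates of a group differed by more than counting noise (chi-square per degree of freedom 1.94 to 3.11), so none was a copy of another. Alternatives were 2 other pseudocounts, other filters, rescaling to the same total, eBayes without trend, a replicate block, a log2 fold change of 1, thinning, and leaving out each library.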

Additional observations from a re-analysis of the deposited data

How the results depend on the processing

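The number of members higher in TLE (1) became 3 with a pseudocount of 1 junction read, 2 with 1 SRPBM, 3 at a log2 fold change of 1, and 0 after rescaling to the same total. Leaving out 1 library gave 0 to 3, and without TLE replicates 1, 2 or 3 the Kcnh5 ring was no longer tested, while rings of Cacna1c, Kcnip4, Kcnma1 or Ano4 passed in its place or beside it. The number lower (0) became 1, the Trpc4 ring, with either smaller pseudocount. The count by host gene was 0 higher and 0 lower in every alternative. The shares of all circRNAs past the threshold under these alternatives are not given here. The changed counts therefore cannot be read against a background, and the shares given above hold for the main setting only.

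Rescaling turned the TLE minus Control difference from above 0 to -147.4 SRPBM for pore-forming Kcn, -21.5 for Scn, -43.6 for Ryr, -2.62 for Trpm and -422.8 for all members. With 1 library left out, the difference ranged from -7.03 to 48.8 (auxiliary Kcn), -0.224 to 29.9 (Scn), -94.3 to 25.5 (Cacna2d), -5.74 to 6.89 (Cacng), -163 to 20.2 (Trpc), -23.1 to 93.4 (Trpm) and -2.55 to 19.0 (Clcn).

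Among named rings, rescaling turned the log2 fold change to -0.16 (Kcnk10 and Kcnj6), -0.037 and -0.095 (Ryr2 mmu_circ_0001834 and mmu_circ_0001836) and -0.024 (Scn8a). Among gene sums it turned to -0.075 (Cacna1b), -0.15 (Kcnj6), -0.18 (Kcnk10), -0.043 (Ryr2), -0.12 (Scn8a) and -0.19 (Trpm7), and the last was -0.010 with a pseudocount of 1 SRPBM. With 1 library left out, ring values that changed sign ranged from -0.045 to 0.18 (Kcnk10), -0.33 to 0.31 (Ryr2 mmu_circ_0001836), -0.22 to 0.41 (Scn8a), -0.050 to 0.18 (Kcnj6), -0.16 to 0.13 and -0.43 to 0.39 (Kcnt2), -0.090 to 0.68 (Kcnk2), -0.82 to 0.13 (Ano3), -0.45 to 0.20 (Cacna1b), -0.26 to 0.30 (Cacna1a) and -0.23 to 0.035 (Trpc6). Gene sums ranged from -0.84 to 0.25 (Ano3), -0.30 to 0.30 (Cacna1a), -0.16 to 0.63 (Cacna1b), -0.66 to 0.39 (Cacna2d3), -0.040 to 0.19 (Kcnj6), -0.018 to 0.099 (Kcnk10), -0.20 to 0.25 (Kcnt2), -0.25 to 0.012 (Trpc6) and -0.43 to 0.58 (Trpm7). None of these values had passed the test.

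The replicate numbers gave no clear sign of pairing. The deviations of same-numbered libraries correlated at 0.019, 0.014 and 0.010, and those of differently numbered libraries at -0.024 to 0.0092. With the replicate number as a block, 1 member was higher and 0 were lower, again without a background share for that setting. Most members had at most 10 junction reads, and 3 mice a group allow no exact p below 0.1.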
